A study of Homo sapiens with 9 samples.

Results

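The genes described here encode the nuclear subunits of the mitochondrial respiratory chain and ATP synthase, read in EPC2 esophageal epithelial cells. They were chosen by a rule on gene names that uses no measured values, though with earlier results of these data known. The rule took names beginning NDUF, UQCR, COX4 to COX8 or ATP5, and SDHA to SDHD. It was restricted to protein-coding transcript rows on primary chromosomes. This gave 93 genes in 103 transcript rows, of 23430 genes on those chromosomes. Of them, 37 are subunits of complex I, 6 are complex I assembly factors, 4 belong to complex II, 8 to complex III, 17 to complex IV, 15 to complex V, and 6 are paralogs or factors outside the complexes. Complex IV is taken here to include NDUFA4, and its 17 genes include 6 isoforms known from particular tissues. The subunits encoded by mitochondrial DNA are not analysed here.

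EPC2 is a line of human esophageal epithelium made immortal by adding telomerase, and all libraries came from this 1 line. The monolayer group (3 libraries) was undifferentiated cells carrying a non-silencing control. The ALI control group (3 libraries) carried the same control and was differentiated at an air-liquid interface, with 0.09 mM calcium up to confluence, 1.8 mM calcium from day 2, air exposure on day 7 and harvest on day 14. The ALI silenced group (3 libraries) had SPINK7, a serine protease inhibitor of squamous epithelium, silenced and was differentiated in the same way. The medium of all 3 groups held epidermal growth factor at 1 ng/mL and pituitary extract at 50 ug/mL. Calcium level, harvest day and air exposure are not recorded for the monolayers. Effects of calcium, time in culture and air therefore cannot be told apart from differentiation in the comparison of ALI controls with monolayers. Whether the libraries of a group are separate cultures is not in the labels, so the p-values speak only of spread among libraries, part of which may be technical. The silencing agent is not described in the labels, so effects of SPINK7 loss and of the agent cannot be told apart.

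Oxidative phosphorylation passes electrons from NADH (complex I) and succinate (complex II) through complex III to oxygen at complex IV, and the proton gradient built on the way drives ATP synthesis at complex V. Each complex except complex II joins subunits encoded in the nucleus with subunits encoded by mitochondrial DNA, so the nuclear transcripts measured here give one side of its supply. In stratified squamous epithelium, dividing cells lie in and near the basal layer, and cells above them stop dividing and differentiate.

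Library totals ran from 7641960 counts (ALI control 1) to 14009746 counts (ALI silenced 2). SPINK7 stood at 0.212, 0.506 and 0.745 CPM (counts scaled to a common library size) in the monolayers, at 230, 261 and 225 CPM in the ALI controls and at 20.9, 38.6 and 32.7 CPM in the silenced libraries, so the target was lower in all 3 silenced libraries, as labelled. The squamous and basal markers summed to 27193 to 27874 CPM in the monolayers, 34540 to 79893 in the ALI controls and 46237 to 83221 in the silenced libraries, and none of the 10 was at 0 in all libraries. KRT4, a suprabasal mucosal keratin, went from 0.854 CPM to 537 CPM with differentiation. Of the 10 markers, 7 rose with differentiation by the test used below (20.3% of all genes) and 0 fell. Log2 fold changes were above 0 in 8 and below 0 in 2, and in 1 all ALI controls lay below all monolayers. With silencing, 1 of the 10 fell (0.703% of all genes) and 0 rose. Leukocyte PTPRC and muscle MYH7 and MYH2 had no count in any library, and columnar CDX2 and VIL1 were also at 0. The leukocyte list, nearly all CD68, summed to 15.4 to 29.1 CPM in the monolayers, 51.8 to 68.6 in the ALI controls and 66.5 to 87.0 in the silenced libraries, and the muscle list to 0.283 to 0.532, 9.11 to 12.49 and 3.74 to 6.53 CPM. The fibroblast list, mostly COL1A1, summed to 49.5 to 185 CPM in the monolayers, 11.6 to 48.3 in the ALI controls and 20.5 to 45.3 in the silenced libraries, and the endothelial list to 0.304 to 0.567, 3.03 to 9.62 and 1.40 to 2.34 CPM. The columnar list, mostly KRT8 and KRT18, summed to 347 to 526, 74.3 to 183 and 200 to 337 CPM. The part of these differences in the results was not tested. The ALI libraries numbered 2 stood apart from the other ALI libraries. The median of 20 cell cycle genes, in log2 CPM relative to the monolayer mean, was -1.06 in ALI control 2 and -1.09 in ALI silenced 2 against 1.32 to 2.56 in the other 4. Monolayers 2 and 3 were closer to each other than any other pair, with a count dispersion of 1.91 times sampling noise against 16.8 to 160 for the other pairs. They differed by more than sampling noise and were counted as separate samples.

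Promoter sequence is shown first, because transcription of these genes is known to be served by shared factors: NRF1, the ETS factor GABP and YY1. RefSeq promoters (GRCh38.p14, 250 bases before to 50 after the start) matched 75 of the 93 members, 61 under the symbol used in the files and the rest under a newer symbol. Those without a match included NDUFB5, NDUFB9, NDUFC2, NDUFS5, NDUFAF6, SDHC, UQCRB, COX6C, COX4I2, COX7A1, ATP5B, ATP5D, ATP5G3, ATP5J2, UQCRHL, ATP5L2 and ATP5S. Letters were searched on both strands. The full palindromic NRF1 letters, those in capitals in the ATP5C1 sequence, were in 5 of the 75 (6.67%) against 1.24% of all 35116 promoters. Their shorter form GCATGCGC, which the longer one contains, was in 15 of the 75 against 3.05%. The ETS letters CCGGAAG were in 20 (26.7%) against 10.3%, and the YY1 letters AAGATGGCG were in 8 (10.7%) against 1.75%. The estrogen-related receptor letters TCAAGGTCA were in 1 promoter (SDHD), and TATAAA was in 7 (9.33%) against 11.5%. Among the 34 matched members that rose during differentiation and the 41 others, the short NRF1 form was in 8 and 7, the ETS letters in 9 and 11, the YY1 letters in 6 and 2 and TATAAA in 6 and 1, with no test. The windows below are the 120 bases before the start, 5′ to 3′ on the strand of the gene, with matches on either strand in capitals. COX7C is shown as the member with the largest rise in the results, ATP5C1 for the longer NRF1 letters, ATP5I and NDUFS7 for the shorter form, and COX5B for the ETS letters.
COX7C, chr5:86617821-86617940, plus strand: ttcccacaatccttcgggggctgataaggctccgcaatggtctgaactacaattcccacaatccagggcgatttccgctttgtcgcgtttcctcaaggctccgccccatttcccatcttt
ATP5C1, chr10:7788057-7788176, plus strand: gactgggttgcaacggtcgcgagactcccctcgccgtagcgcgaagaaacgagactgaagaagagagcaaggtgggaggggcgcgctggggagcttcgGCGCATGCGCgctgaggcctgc
COX5B, chr2:97645942-97646061, plus strand: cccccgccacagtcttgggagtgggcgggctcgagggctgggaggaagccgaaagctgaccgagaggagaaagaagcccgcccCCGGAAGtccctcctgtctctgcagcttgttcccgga
ATP5I, chr4:674277-674396, minus strand: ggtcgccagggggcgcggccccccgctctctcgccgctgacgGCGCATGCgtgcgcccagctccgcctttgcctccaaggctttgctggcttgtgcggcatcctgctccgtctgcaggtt
NDUFS7, chr19:1383787-1383906, plus strand: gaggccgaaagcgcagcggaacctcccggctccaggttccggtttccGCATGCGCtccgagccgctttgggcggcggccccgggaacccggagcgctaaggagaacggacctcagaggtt
Counting the last printed base as -1, the matches begin at -22 in ATP5C1, -37 in COX5B, -78 in ATP5I and -73 in NDUFS7. COX7C held none of the 6 sets of letters in its whole window. COX5B holds further ETS letters from -5, running past the printed bases, and the shorter NRF1 form at -136. A match is a description of letters and no evidence of binding, which was not measured.

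Of the 87 members that passed the low-count filter, 38 rose with differentiation (ALI control against monolayer), 1 fell and 48 did not pass the test. Over all 12806 genes tested, 20.3% rose and 20.2% fell (edgeR quasi-likelihood test, Benjamini-Hochberg adjusted p under 0.05). The median member log2 fold change was 0.67, against 0.03 over all genes tested. Values were above 0 in 77 members, against 51.2% of all genes. All 3 ALI control libraries lay above all 3 monolayers in 51 members (27.3% of all genes) and below them in 2, COX6B2 and NDUFS8 (29.9% of all genes). The 6 members that were not tested are COX4I2, COX6A2, COX7A1, COX7B2, COX8C and ATP5L2, described with the isoforms. The RNA is from whole cultures, and ALI cultures are layered mixes, so a changed number of cells of a type and changed RNA per cell cannot be told apart. Rows of 19 members overlap a row of another gene, 13 of them on the opposite strand, and 2 rows carry a joint name with a readthrough gene (ATP5J2 and NDUFC2). Many members have processed pseudogenes, and neither the use of strand nor the treatment of reads with several matches is given in the sources used here, so such counts are uncertain.

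The members took 0.533, 0.546 and 0.574% of the counts of the monolayers, 0.635, 0.983 and 0.724% of the ALI controls, and 0.638, 0.747 and 0.724% of the silenced libraries. The 3 monolayers were the lowest of the 9. ALI control 2 was the highest, and it was the highest of the 3 control libraries in 69 of 87 members (79.3%, against 41.9% of all genes tested). It was the highest of all 9 libraries in 68 members (78.2%, against 27.1%). Relative to the monolayer mean, the median member stood at 0.32, 1.11 and 0.51 log2 CPM in ALI controls 1, 2 and 3, and at 0.21, 0.45 and 0.45 in the silenced libraries. Without ALI control 2, 27 members rose, against 19.5% of all genes, and the median was 0.38. The number of calls rested on the monolayers too: 15, 15 and 19 members rose when monolayer 1, 2 or 3 was left out, and 15 when monolayers 2 and 3 were summed. Of all genes, 15.2, 13.4, 13.8 and 13.6% rose in the same fits, in that order. Of the 39 calls, 13 held under all 22 alternatives: COX7C, ATP5B, ATP5A1, ATP5F1, ATP5G1, ATP5O, SDHB, UQCRQ, NDUFV2, NDUFS3, NDUFB9, NDUFAF1 and ATP5S.

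**Figure D1:**
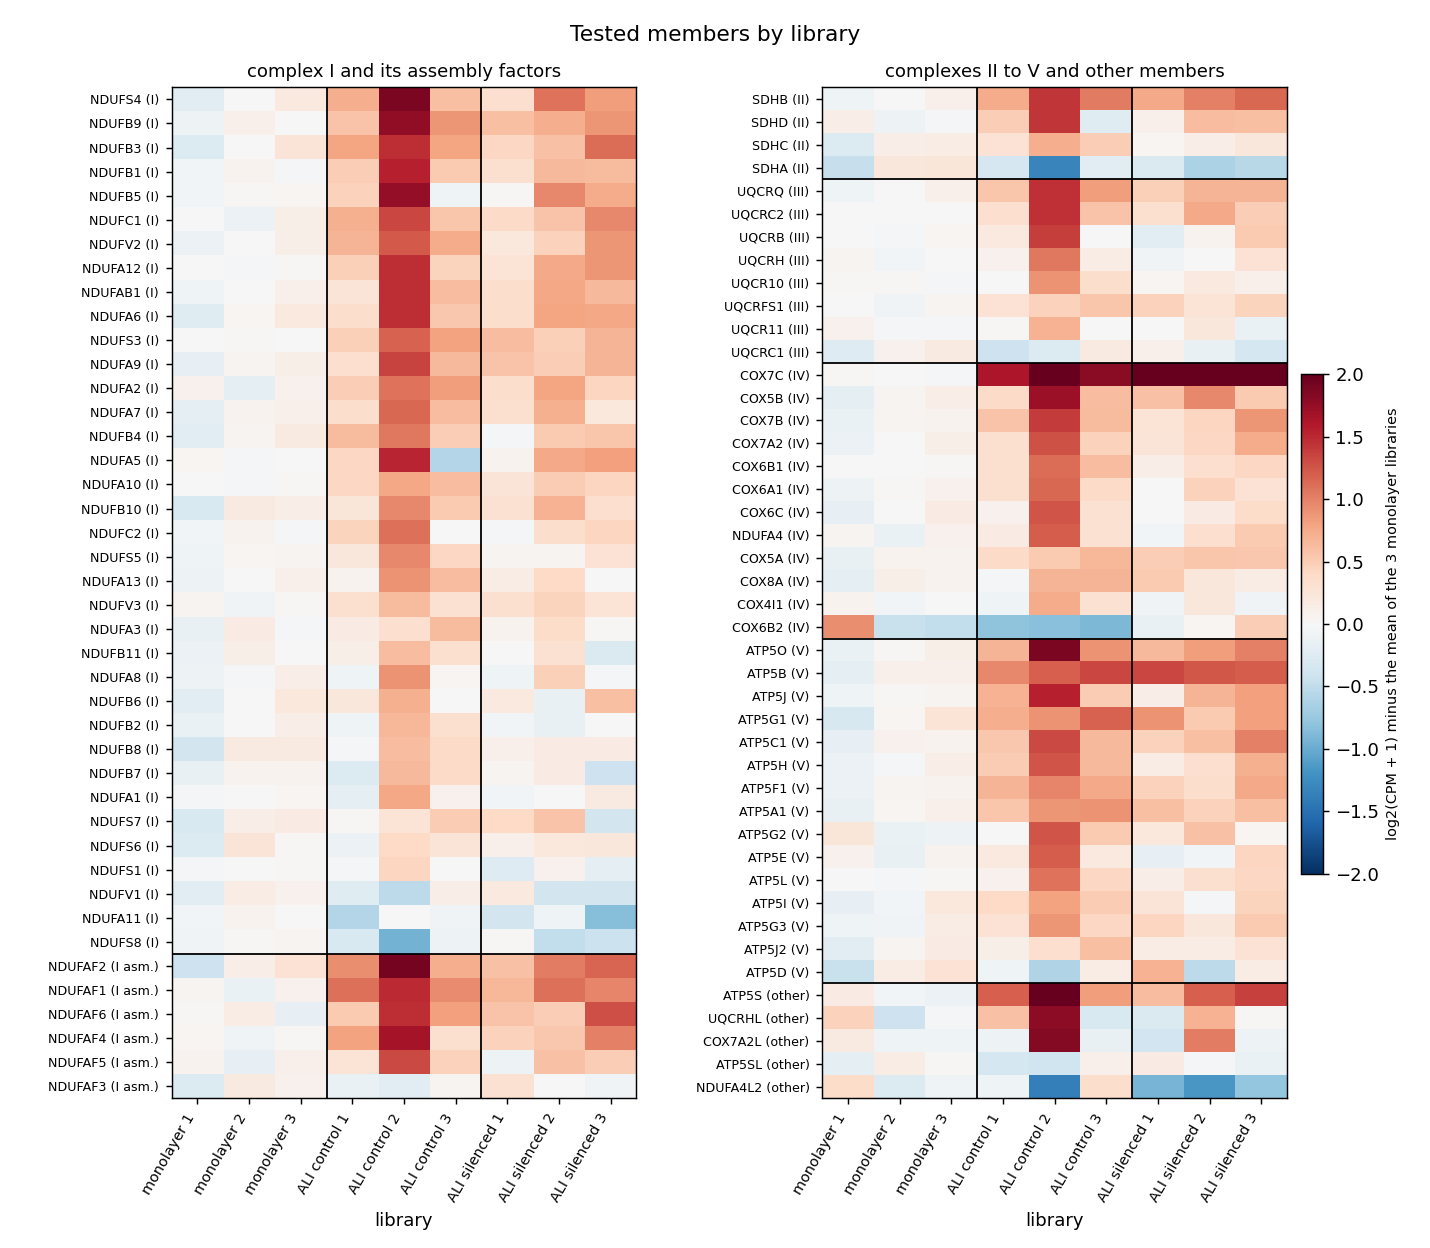
Level of tested members in each library as log2(CPM + 1) minus the mean of the 3 monolayer libraries, on a colour scale from -2 to 2, with members in rows grouped by complex and libraries in columns. Red is higher and blue lower than the monolayers. ALI control 2 is the darkest red column, and SDHA, NDUFS8 and NDUFA4L2 are blue in it.

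Complex V, the ATP synthase, had the largest share of members that rose among the 5 complexes. In complex V 9 of 15 rose (60%, against 20.3% of all genes tested), with a median log2 fold change of 0.78. ATP5B encodes the catalytic beta subunit of its F1 head (chromosome 12, 57031959 to 57039852, hg19). It stood at 252, 310 and 312 CPM in the monolayers, 565, 662 and 732 CPM in the ALI controls, and 735, 688 and 675 CPM in the silenced libraries. The groups of control and monolayer libraries did not overlap, and ATP5B rose 2.24-fold (log2 fold change 1.16, SE 0.21, adjusted p = 0.00194). ATP5A1, the alpha subunit of the head, stood at 270, 308 and 321 CPM and then 437, 549 and 557 CPM, a rise of 0.78 on the log2 scale (adjusted p = 0.0121). ATP5C1, the gamma subunit that turns inside the head, went from 86.0, 103 and 101 CPM to 141, 241 and 152 CPM (log2 fold change 0.88, adjusted p = 0.0195). ATP5C1 missed the threshold when any 1 monolayer was left out (adjusted p 0.0501 to 0.0680).

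Some of the parts that join the head to the membrane also rose. ATP5O, the subunit of the stalk that confers oligomycin sensitivity, had 65.2, 73.1 and 77.6 CPM in the monolayers and 116, 267 and 135 CPM in the ALI controls, a rise of 1.26 on the log2 scale with SE 0.30 (adjusted p = 0.00830). ATP5F1, subunit b of the stalk, rose by 0.81 (adjusted p = 0.00763), and its row overlaps WDR77 on the opposite strand. ATP5J rose by 1.01 (adjusted p = 0.0216), but its row overlaps GABPA on the opposite strand, and it missed the threshold without any 1 monolayer (adjusted p 0.0572 to 0.0677). ATP5H, also of the stalk, rose by 0.85 (adjusted p = 0.0204), and ATP5I, a membrane subunit, by 0.58 at the edge of the threshold (adjusted p = 0.04998), a call kept in 7 of 22 alternatives. Of 3 genes for subunit c, the ring that turns in the membrane, ATP5G1 rose from 19.6, 25.5 and 29.9 CPM to 41.4, 46.9 and 57.3 CPM (log2 fold change 0.96, adjusted p = 0.00810). ATP5G2 had a log2 fold change of 0.69 (adjusted p = 0.0988) and ATP5G3 one of 0.55 (adjusted p = 0.0574). Per length, the authors' RPKM gave ATP5G2 49.5% ± 5.7, ATP5G3 26.5% ± 1.4 and ATP5G1 24.0% ± 4.3 of the subunit c transcripts in the monolayers (SD, n = 3), and 48.6% ± 8.4, 23.03% ± 2.6 and 28.4% ± 7.2 in the ALI controls. ATP5D, the delta subunit of the central stalk, went from 21.9, 33.4 and 36.9 CPM to 28.1, 19.4 and 33.5 CPM, and these groups overlapped (log2 fold change -0.18, adjusted p = 0.695). Its log2 fold change was 0.013 without ALI control 2.

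**Figure D2:**
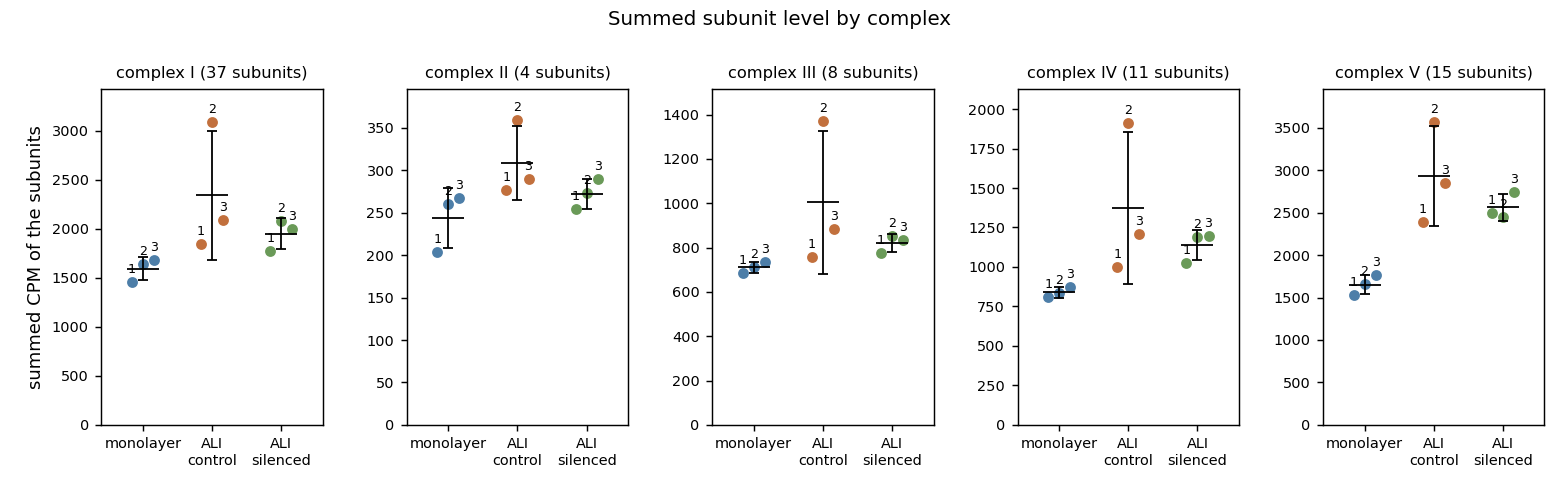
Summed CPM of the subunits of each complex (vertical axis, from 0) in the monolayer, ALI control and ALI silenced groups. Points are libraries with their replicate number, wide bars are means and whiskers are SD over 3 libraries. In every complex but II all ALI libraries lie above all monolayers, and ALI control 2 is the highest library in every panel.

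Summed over its subunits, complex V stood at 1652 ± 115 CPM in the monolayers, 2932 ± 593 in the ALI controls and 2562 ± 157 in the silenced libraries (SD, n = 3). The control to monolayer ratio of these sums was 1.78 for complex V, 1.64 for complex IV, 1.47 for complex I, 1.41 for complex III and 1.26 for complex II. Without ALI control 2 the ratios were 1.58, 1.31, 1.24, 1.16 and 1.16. These sums carry no test. With all libraries used, the order of complexes IV and V depended on the measure. By summed CPM complex V was higher with and without ALI control 2, and the authors' RPKM gave 1.51 and 1.503 for V and IV. The geometric mean of CPM gave 1.64 for V and 1.77 for IV. Without ALI control 2 it gave 1.455 for V and 1.418 for IV.

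Complex IV, cytochrome c oxidase, held the largest rise of all members. COX7C, a small subunit made in all tissues (chromosome 5, 85913784 to 85916583, hg19), stood at 20.4, 20.04 and 19.5 CPM in the monolayers, 63.1, 175 and 72.1 CPM in the ALI controls, and 103, 126 and 129 CPM in the silenced libraries. No ALI library overlapped the monolayers. COX7C rose 5.17-fold (log2 fold change 2.37, SE 0.36, adjusted p = 0.000764), and its log2 fold change was 1.76 without ALI control 2 (adjusted p = 3.32e-05). A microRNA gene, MIR3607, lies in the row of COX7C on the same strand. Per length, COX7C moved from 44.1 ± 0.735 to 196 ± 101 RPKM (SD, n = 3). By mean it went from the lower end to the upper end of the widely expressed complex IV subunits. It was at 128, 313 and 147 RPKM in ALI controls 1, 2 and 3. In controls 1 and 3 it lay below COX4I1, COX6B1 and COX7B.

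In all, 6 of 12 tested complex IV genes rose (50%, against 20.3% of all genes tested) and 1 fell. Their median log2 fold change was 0.66. COX5B, which lies on the matrix side, went from 43.7, 52.5 and 55.3 CPM to 65.6, 167 and 77.7 CPM (log2 fold change 1.04, adjusted p = 0.0310). COX5A rose by 0.53 (adjusted p = 0.0316), COX7B by 0.93 (adjusted p = 0.0188), COX7A2 by 0.76 (adjusted p = 0.0460) and COX6B1 by 0.73 (adjusted p = 0.0259). Of the complex IV genes that rose, COX7C alone kept its call without each of the 3 monolayers. COX5B and COX7A2 also missed the threshold without ALI control 2 (adjusted p = 0.0614 and 0.111). COX4I1, the largest nuclear subunit, stood at 203, 187 and 192 CPM in the monolayers and 182, 326 and 239 CPM in the ALI controls, groups that overlapped (log2 fold change 0.36, adjusted p = 0.241).

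**Figure D3:**
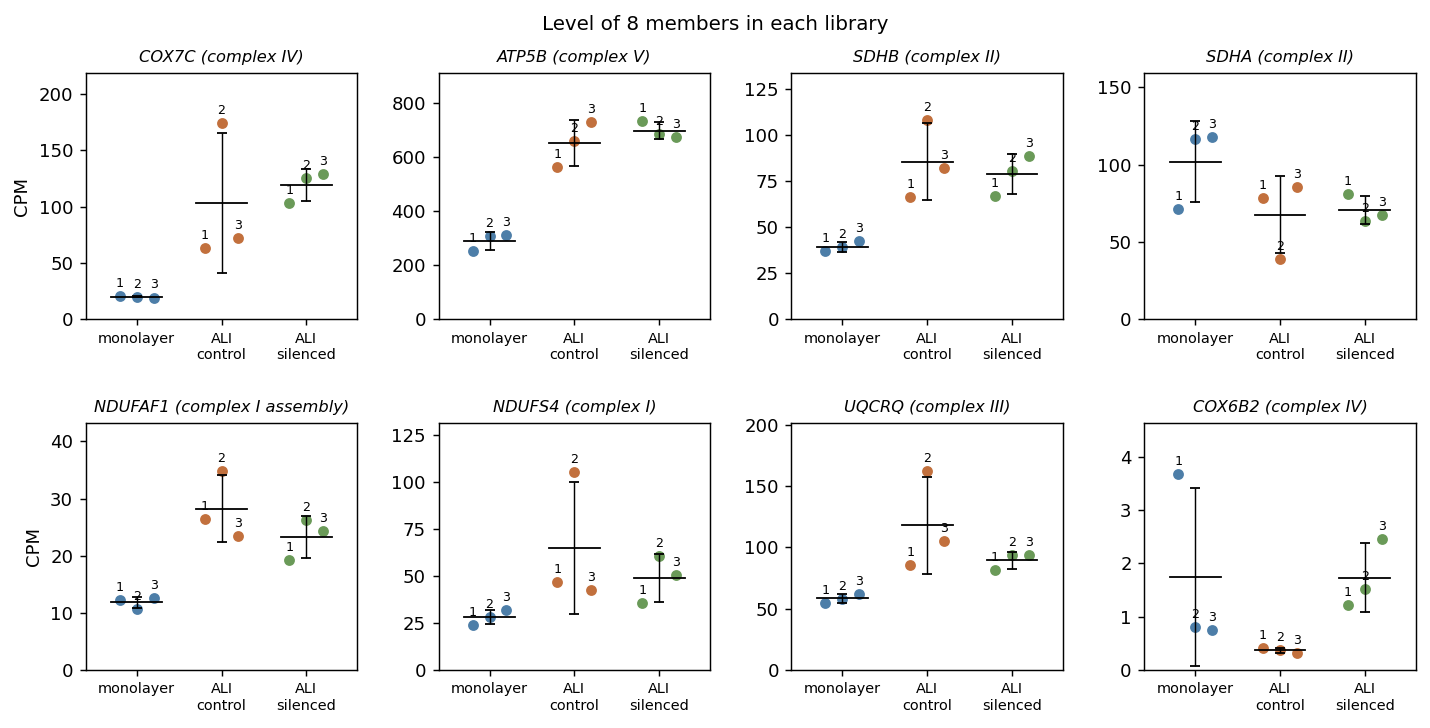
CPM of 8 members (vertical axes, from 0) in the monolayer, ALI control and ALI silenced groups. Points are libraries with their replicate number, bars are means and whiskers are SD over 3 libraries. COX7C, ATP5B and SDHB lie higher in all 6 ALI libraries than in the monolayers, while SDHA does not.

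Complex I, NADH dehydrogenase, had 15 of 37 subunits that rose and none that fell, with a median log2 fold change of 0.59. The core subunits, which carry the flavin and the iron-sulfur clusters, gave 2 of 7 with a median of 0.28, and the accessory subunits around them gave 13 of 30 with a median of 0.61. The difference between core and accessory subunits was not tested. NDUFV2 stood at 43.8, 47.96 and 51.6 CPM in the monolayers, 76.8, 114 and 80.4 CPM in the ALI controls and 55.6, 66.2 and 89.1 CPM in the silenced libraries. It rose 1.89-fold (log2 fold change 0.92, SE 0.24, adjusted p = 0.0118). NDUFS3 rose from 28.9, 29.4 and 28.9 CPM to 40.9, 67.4 and 51.8 CPM (log2 fold change 0.87, adjusted p = 0.00904), though its row overlaps KBTBD4 on the opposite strand. The core subunits NDUFV1, NDUFS1, NDUFS7 and NDUFS8 did not pass. NDUFV1, the partner of NDUFV2 at the NADH site, had a log2 fold change of -0.20 (adjusted p = 0.543), NDUFS8 one of -0.42 (adjusted p = 0.203), NDUFS1 one of 0.15 (adjusted p = 0.558) and NDUFS7 one of 0.28 (adjusted p = 0.449). NDUFS8 was below all monolayers in every ALI control, at 29.3, 18.5 and 33.8 CPM against 34.8, 37.0 and 37.9 CPM.

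Among the accessory subunits the largest rises were those of NDUFS4, NDUFB9, NDUFB3 and NDUFB1. NDUFS4, whose loss is a known cause of complex I deficiency, went from 24.0, 28.1 and 31.9 CPM to 46.6, 105 and 42.6 CPM, a rise of 1.21 on the log2 scale (SE 0.36, adjusted p = 0.0219). NDUFB9 went from 39.1, 45.4 and 42.4 CPM to 63.0, 147 and 79.0 CPM, a rise of 1.19 (SE 0.29, adjusted p = 0.00962). In both genes all ALI controls lay above the monolayers, and control 2 stood far above the other controls. NDUFB3 rose by 1.06 (adjusted p = 0.0128) and NDUFB1 by 0.99 (adjusted p = 0.0249). In this leave-out check NDUFS4 missed the threshold without monolayer 1 (adjusted p = 0.0760) or 2 (0.0635), NDUFB3 without monolayer 1 (0.0512), and NDUFB1 without any 1 monolayer (0.0621 to 0.0731). Of the accessory subunits, NDUFA11 alone had a log2 fold change below 0, at -0.20 (adjusted p = 0.530).

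The complex I assembly factors, proteins that help build the complex without staying in it, gave 4 of 6 that rose (66.7%). Over all genes tested 20.3% rose. The median of these factors was 1.10. NDUFAF1 (chromosome 15, 41679547 to 41694658, hg19) had 12.2, 10.6 and 12.6 CPM in the monolayers, 26.4, 34.8 and 23.5 CPM in the ALI controls and 19.2, 26.3 and 24.2 CPM in the silenced libraries. It rose 2.39-fold (log2 fold change 1.26, SE 0.23, adjusted p = 0.00183). NDUFAF2 rose by 1.35 (adjusted p = 0.0143), NDUFAF6 by 1.11 (adjusted p = 0.0258) and NDUFAF4 by 1.10 (adjusted p = 0.0265). Without ALI control 2, NDUFAF4 had a log2 fold change of 0.62 (adjusted p = 0.0682) and NDUFAF6 one of 0.77 (adjusted p = 0.0736). Both also missed the threshold without any 1 monolayer (adjusted p 0.0562 to 0.0865), and NDUFAF2 did without monolayer 1 (0.0558). NDUFAF3 had a log2 fold change of -0.11 (adjusted p = 0.700).

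In complex II, succinate dehydrogenase, 1 of 4 subunits rose (25%, near the 20.3% of all genes tested), with a median of 0.62. SDHB, the iron-sulfur subunit (chromosome 1, 17345225 to 17380665, hg19), stood at 36.9, 39.1 and 42.4 CPM in the monolayers, 66.4, 108 and 82.2 CPM in the ALI controls and 67.1, 80.2 and 88.6 CPM in the silenced libraries. It rose 2.17-fold (log2 fold change 1.12, SE 0.22, adjusted p = 0.00301). SDHA, the flavoprotein that SDHB binds, stood at 71.6, 117 and 118 CPM, then 78.2, 39.1 and 85.6 CPM, then 80.9, 63.5 and 67.7 CPM. Its control and monolayer libraries overlapped and it did not pass (log2 fold change -0.59, 95% interval -1.35 to 0.16, adjusted p = 0.150). That interval lies below the one of SDHB, 0.58 to 1.65, but the difference between the genes was not tested. For SDHA, ALI controls 1 and 3 lay within the monolayer range, and ALI control 2, at 39.1 CPM, lay below it. SDHA has near-identical copies elsewhere in the genome, and how reads matching several places were counted is not given in the sources used here. The membrane anchors SDHC and SDHD had log2 fold changes of 0.52 (adjusted p = 0.0609) and 0.72 (adjusted p = 0.139), and SDHC overlaps C1orf192 on the opposite strand.

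In complex III, 2 of 8 subunits rose (25%, near the 20.3% of all genes tested), with a median of 0.49. UQCRQ, a small subunit at the membrane, went from 54.9, 57.9 and 62.3 CPM to 86.0, 163 and 105 CPM, a rise of 1.02 on the log2 scale (SE 0.24, adjusted p = 0.00785). UQCRC2, a large core protein on the matrix side, went from 125, 127 and 127 CPM to 159, 351 and 188 CPM (log2 fold change 0.88, adjusted p = 0.0341). UQCRC2 missed the threshold without any 1 monolayer (adjusted p 0.0862 to 0.0902) and without ALI control 2 (0.0638). Its partner UQCRC1 stood at 141, 181 and 192 CPM and then 127, 141 and 192 CPM, groups that overlapped (log2 fold change -0.16, adjusted p = 0.604). UQCRFS1, the Rieske iron-sulfur protein, had a log2 fold change of 0.45 (adjusted p = 0.0601). Of the members outside the complexes, ATP5S, a factor linked to the synthase, rose from 3.97, 3.24 and 3.09 CPM to 9.11, 16.5 and 6.87 CPM (log2 fold change 1.65, adjusted p = 0.00613).

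**Figure D4:**
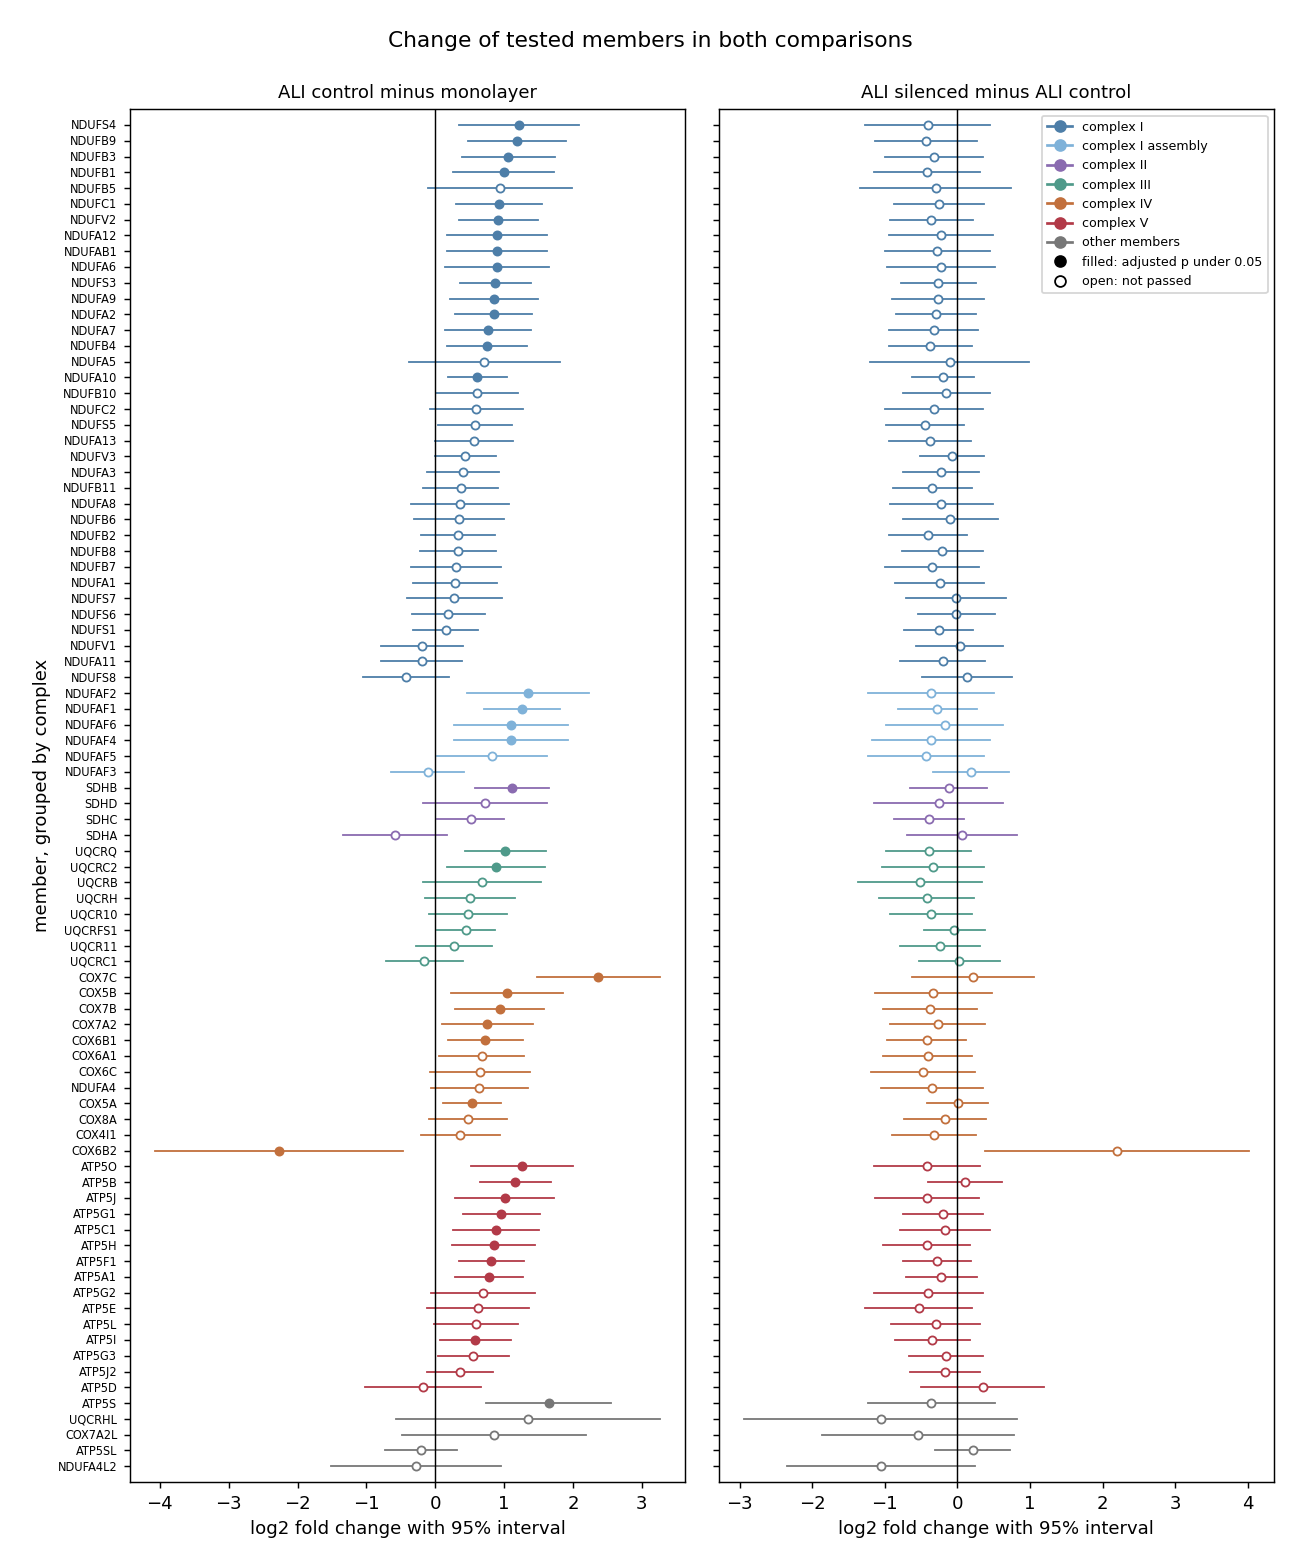
Log2 fold change of tested members (points) with its 95% interval (lines) for ALI control minus monolayer on the left and ALI silenced minus ALI control on the right, coloured by complex. Filled points passed the adjusted p threshold of 0.05. On the left 39 points are filled, and on the right none. The panels share the ALI control libraries.

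Of the 6 tissue isoforms of complex IV, 5 were near absent in all 9 libraries. COX4I2, COX6A2, COX7A1, COX7B2 and COX8C, known from lung, muscle, heart or testis, had 1, 0, 1, 0 and 3 counts over the 9 libraries together. A count of 0 in a library allows up to 3 counts, or 0.206 to 0.402 CPM by library, which covers counting error only. Their partners COX4I1, COX6A1, COX7A2, COX7B and COX8A took at least 99.8% of the RPKM of each pair in every library. COX6B2, known from testis, took at most 1.42% of its pair with COX6B1. COX6B2 had 52, 8 and 7 counts in the monolayers, 3 in each ALI control and 13, 22 and 21 in the silenced libraries. It was the only member that fell (log2 fold change -2.27, SE 0.73, adjusted p = 0.0323). Monolayer 1 held most of the monolayer counts, and without it the log2 fold change was -1.07 (adjusted p = 0.174). It also missed the threshold without any 1 ALI control (adjusted p 0.0628 to 0.0835).

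UQCRHL, a copy of UQCRH, had log2 fold changes of 1.35 for differentiation and -1.06 for silencing (adjusted p = 0.191 and 0.719), with 0.506 to 5.93 CPM over the libraries. Its highest value was in ALI control 2, and without that library the log2 fold changes were 0.22 and 0.077. NDUFA4L2, a paralog of NDUFA4 known to be induced by low oxygen, held 9.72, 6.63 and 6.65% of the RPKM of the pair in the monolayers, 6.32, 0.880 and 8.12% in the ALI controls and 3.42, 2.02 and 2.73% in the silenced libraries. ALI control 2 had the lowest share of the 9. The gene passed neither test, with log2 fold changes of -0.28 for differentiation (adjusted p = 0.679) and -1.05 for silencing (adjusted p = 0.594). NDUFA4L2 had a differentiation log2 fold change of 0.15 without ALI control 2. It overlaps SHMT2 on the opposite strand. ATP5L2 had no count in any library.

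Silencing of SPINK7 gave no call among the 87 tested members, 0 higher and 0 lower, against 0.226% and 0.703% of all genes tested by edgeR's quasi-likelihood test. At an unadjusted p under 0.05 there was 1 member, COX6B2, against 9.16% of all genes. DESeq2 and limma-voom also called 0. The lowest adjusted p was 0.287, for COX6B2 (log2 fold change 2.20, 95% interval 0.38 to 4.01). It was the only member with all silenced libraries above all controls (5.76% of all genes), and SDHC the only one with all below (6.34%).

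Without a single call, 76 of the 87 values lay below 0 (49.4% of all genes), with a median of -0.28 against 0.01 over all genes. That lean rested on ALI control 2. Without it, 45 values lay below 0 and 42 above, with a median of -0.016, and without both ALI libraries numbered 2 there were 52 and 35, with a median of -0.023. The differentiation and silencing comparisons share the ALI controls, so a value high in a control library enters them with opposite signs. Among members that averaged 5 CPM or more in either group, the lowest log2 fold changes were COX7A2L at -0.54 (adjusted p = 0.784), ATP5E at -0.53 (adjusted p = 0.652) and UQCRB at -0.52 (adjusted p = 0.705). COX7A2L, a factor in joining complexes III and IV, had 84.7, 328 and 81.6 CPM in the ALI controls and 69.3, 186 and 84.2 CPM in the silenced libraries, so the library numbered 2 was highest in each group. Without ALI control 2, UQCRB stood at 0.049 and COX7A2L at 0.45. The highest among them were ATP5D at 0.35 (adjusted p = 0.784), COX7C at 0.21 (adjusted p = 0.866) and ATP5SL at 0.21 (adjusted p = 0.790). ATP5D had a log2 fold change of -0.0014 without ALI silenced 1.

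COX7C was the one member whose silencing call changed with the libraries used. ALI control 2, at 175 CPM, lay above the silenced libraries (103 to 129 CPM), while controls 1 and 3 lay below them at 63.1 and 72.1 CPM. Without ALI control 2 its log2 fold change was 0.82 (SE 0.17, adjusted p = 0.0492), without both ALI libraries numbered 2 it was 0.78 (adjusted p = 0.0220), and without ALI control 1 it was -0.043 (adjusted p = 0.967). For ATP5B, SDHB and COX5A the intervals bound the change with all libraries used. ATP5B had a silencing log2 fold change of 0.10 (95% interval -0.41 to 0.61), SDHB one of -0.12 (-0.65 to 0.41) and COX5A one near 0 (-0.42 to 0.42). SDHB changed sign, to 0.081, without ALI control 2. Larger changes in either direction lie outside those intervals, and a missed threshold does not show equal levels. Summed subunit CPM in the silenced group was 0.83, 0.88, 0.82, 0.83 and 0.87 times the control sum for complexes I to V, and 0.99, 0.96, 1.00, 1.03 and 0.98 times without ALI control 2.

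Other mitochondrial genes were counted by list in differentiation, beside the 20.3% of all genes that rose. Of carriers and subunits outside the name rule, 5 of 9 rose: ETFDH (log2 fold change 2.10, adjusted p = 0.00668) and ETFA (1.05, adjusted p = 0.00516), which feed electrons from fat oxidation, CYCS (1.36, adjusted p = 0.0113), which is cytochrome c, and the synthase subunits C14orf2 (0.92, adjusted p = 0.0394) and USMG5 (0.88, adjusted p = 0.0482). Assembly factors of complexes II to V gave 11 of 28 with a median of 0.65, led by PET117 at 2.12 (adjusted p = 0.000865). Complex I assembly factors with other names gave 2 of 9, COA1 (1.01, adjusted p = 0.00904), which is also in the list before, and TIMMDC1 (0.74, adjusted p = 0.0358). ATP5SL, one of the members, is in this list too. Mitochondrial ribosomal proteins gave 40 of 78 with a median of 0.71, led by MRPL48 and MRPS6, both at 1.92. Import machinery gave 13 of 20 with a median of 0.85, led by TOMM5 at 2.01, and the adenine nucleotide and porin carriers gave 3 of 6, led by SLC25A5 at 1.51. No member of these lists fell. Each of these lists had its highest ALI control median in ALI control 2. Relative to the monolayer mean, carriers stood at 0.55, 1.44 and 0.41 log2 CPM in ALI controls 1, 2 and 3. Import machinery stood at 0.57, 1.14 and 0.60. Whether calls of these lists and of the lists below hold with a library left out is not given here.

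In the matrix, 5 of 16 tricarboxylic acid cycle genes rose, with a median of 0.28, led by SUCLA2 (1.36, adjusted p = 0.0182) and IDH3A (1.22, adjusted p = 0.000632). Of 10 genes of mitochondrial mass outside respiration, 3 rose, with a median of 0.28. TFAM, VDAC1, TOMM20, CS and HSPD1 of this list are also in other lists counted here. Of 18 tested regulators of mitochondrial biogenesis, 2 rose: TFB2M, a factor for transcription of mitochondrial DNA, which went from 10.5, 10.1 and 9.68 CPM to 31.2, 32.8 and 27.6 CPM (log2 fold change 1.59, adjusted p = 0.000358), and SSBP1, which coats single-stranded mitochondrial DNA (1.00, adjusted p = 0.0161). The factors whose letters were searched did not pass, with log2 fold changes of 0.37 for NRF1 (adjusted p = 0.214), 0.59 for GABPA (adjusted p = 0.170) and -0.11 for YY1 (adjusted p = 0.652). Of 19 glycolysis genes, 1 rose and 2 fell: HK2, a hexokinase (2.42, adjusted p = 0.000119), and the lactate exporter SLC16A3 (-2.06, adjusted p = 0.00147) and PFKP (-1.20, adjusted p = 0.0487). In the silencing comparison none of these lists held a call by edgeR; unadjusted p was under 0.05 in at most 1 gene of any of them.

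**Figure D5:**
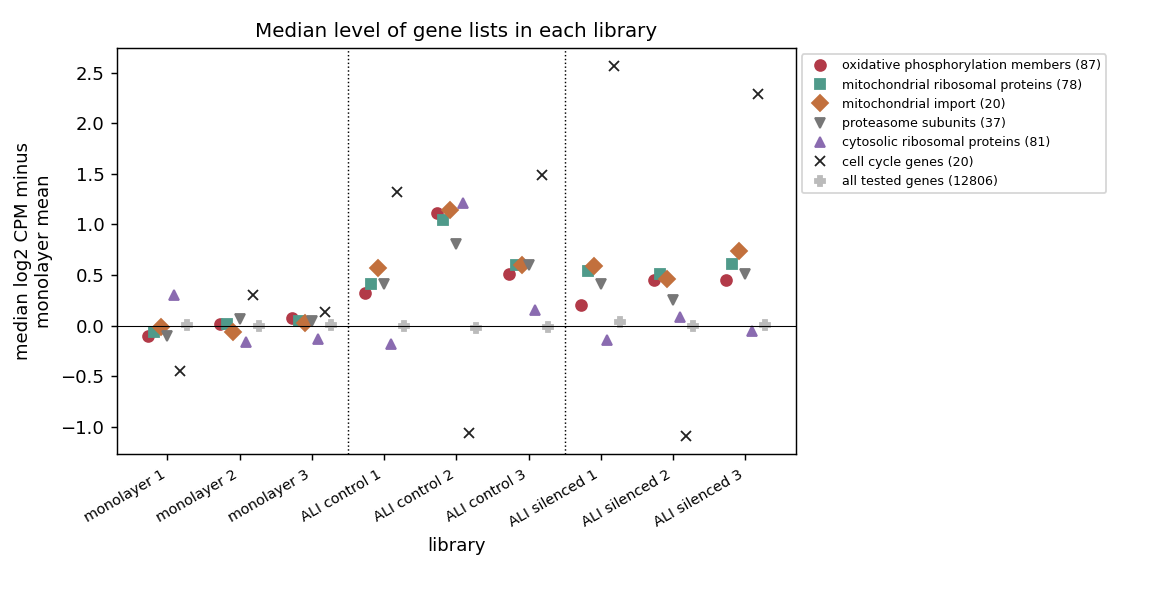
Median over the tested genes of each list of log2 CPM minus the monolayer mean (vertical axis) in each of the 9 libraries, with the number of genes in the key. The oxidative phosphorylation members lie between 0.21 and 1.11 in the ALI libraries. Mitochondrial ribosomal proteins lie there between 0.41 and 1.04, and proteasome subunits between 0.26 and 0.81. Cytosolic ribosomal proteins reach 1.21 in ALI control 2 and stay between -0.18 and 0.15 in the other ALI libraries.

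Of lists outside mitochondria, proteasome subunits gave 20 of 37 that rose and 4 that fell, with a median of 0.62. Cytosolic ribosomal proteins gave 3 of 81 that rose, against 20.3% of all genes, with a median log2 fold change of 0.53. Their values were above 0 in 73 of 81 genes (51.2% of all genes). In ALI control 2 their median stood 1.21 log2 CPM above the monolayer mean. Transcript length also moved with the change. The members are short, with a median of 865 bases against 2943 over all genes tested, and 49 of the 87 are under 1 kb. Among other genes, 32.2% of those under 1 kb rose, 27.1% of those of 1 to 2 kb, 19.6% of those of 2 to 4 kb and 14.0% of those over 4 kb, with median log2 fold changes of 0.54, 0.28, 0.03 and -0.27. In the same classes 24 of 49, 11 of 25, 2 of 11 and 1 of 2 members rose, with medians of 0.67, 0.78, 0.55 and 0.64. The part of transcript length, of ALI control 2 and of the cell cycle difference in the members' rise was not tested.

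Per length, the authors' RPKM spread the tested subunits over a wide range in the monolayers. ATP5E, the epsilon subunit of the synthase head, was highest at 290 ± 24.9 RPKM (SD, n = 3), followed by COX4I1 at 211 ± 7.75 RPKM and UQCRH at 163 ± 5.68 RPKM. The row of ATP5E overlaps a row of SLMO2 and its readthrough SLMO2-ATP5E on the same strand. Within complex I, NDUFS5 was highest at 137 ± 8.1 RPKM and NDUFA10 lowest at 11.8 ± 0.235 RPKM. Within complex II the order in the monolayers was SDHA (38.4 ± 10.1), SDHB (31.0 ± 2.36), SDHD (26.0 ± 2.21) and SDHC (19.9 ± 3.31 RPKM). The libraries of SDHA and SDHB overlapped, and those of the other neighbours in this order did not. In the ALI controls the order was SDHB (58.7 ± 10.4), SDHD (37.0 ± 18.9), SDHC (25.0 ± 2.32) and SDHA (22.9 ± 9.61 RPKM), and neighbours in this order overlapped. The last place of SDHA came from ALI control 2 (11.9 RPKM, against 26.7 for SDHC). In ALI controls 1 and 3 SDHA was above SDHC, at 27.1 and 29.7 against 22.4 and 25.9 RPKM. The assembly factors were lower than most subunits, from 2.79 RPKM for NDUFAF6 to 18.5 RPKM for NDUFAF3 in the monolayers.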

How the data were processed

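Polyadenylated RNA was read as stranded RNA-seq in 9 libraries, 3 per group. The deposited tables give raw read counts per RefSeq transcript row, and the authors' RPKM (reads scaled to transcript length and library size) beside the counts, as deposited. Per the submitters' processing notes the build was hg19 and the tools included STAR 2.4.2a; the counter is not given in the sources used here. The read totals behind RPKM exceeded the summed counts by 1.14 to 1.24 times.

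Counts were summed per gene symbol and chromosome over primary chromosomes, with NM rows only for members; 4 name-matching genes without such rows were left out. CPM uses TMM-adjusted library sizes. The test was edgeR 4.0.16 (R 4.3.3): TMM, filterByExpr, robust quasi-likelihood over all 9 libraries, 6 residual degrees of freedom, Benjamini-Hochberg adjustment over 12806 genes, threshold 0.05. Every adjusted p in the text is from it unless another tool is named, and log2 fold changes have 95% intervals with those degrees of freedom. The scripts were tested on simulated data. Alternatives used DESeq2 1.42.0, limma 3.58.1 on voom values or on log2(RPKM + 1) and log2(RPKM + 0.1), other filters, a replicate block and each library left out.

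Named were core and isoform genes, up to 4 members per complex with the largest called changes and no overlap between groups, and, with no call, the 3 largest changes each way among members of at least 5 CPM. Up to 4 called genes were named per other list; other names were chosen after their values were seen. The members and lists were chosen with earlier results of these data known. Gene positions are hg19 as deposited; promoters are RefSeq GRCh38.p14, and the builds were not mixed. Values of 1 member and 1 marker are not reported here, in the text or the figures.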

Additional observations from a re-analysis of the deposited data

How the results depend on the processing

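The number of members that rose with differentiation, 38, was 22 and 23 by limma on log2(RPKM + 1) and log2(RPKM + 0.1), 15 with monolayers 2 and 3 summed, and 15 to 48 with 1 library left out. Of all genes, 15.1, 15.5 and 13.6% rose in these fits, and 13.4 to 21.4% with 1 library left out. On the RPKM scales the median of all genes was -0.13 and -0.18 in differentiation, against 0.03, and 0.10 and 0.14 in silencing, against 0.01, and with log2(RPKM + 1) 15.1% of all genes rose and 26.3% fell, and the member medians were 0.38 and 0.38. The 1 fall, COX6B2, was 0 by limma-voom, with the stricter filter, with only the 2 groups compared and with log2(RPKM + 1), and 0 to 1 with 1 library left out. The number that rose with silencing, 0, was 1 without both ALI libraries numbered 2 (2.17% of all genes) and 0 to 1 with 1 library left out (0.0231 to 0.71%), and no alternative gave a fall. The replicate block gave 37 rises and 1 fall in differentiation (19.2 and 20.8% of all genes) and 0 and 0 in silencing (0.398 and 0.976%). Same-numbered libraries deviated together with r of 0.50, 0.58 and -0.0063 between the ALI groups and -0.16, -0.22 and -0.013 between monolayer and ALI control. For libraries with different numbers, r ran from -0.69 to 0.64 between the ALI groups and from -0.11 to 0.18 between monolayer and ALI control. These values do not settle whether the numbers pair the libraries, which was not tested.

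Without ALI control 2, 7 of 87 members changed sign in differentiation and 41 in silencing; without both ALI libraries numbered 2, 7 and 32 did. UQCRHL in silencing was 0.077 and COX7A2L in differentiation -0.13 without ALI control 2. The named members tried under every alternative gave these turns. NDUFA4L2 in differentiation was 0.15 without both ALI libraries numbered 2, and -0.80 to 0.15 with 1 library left out. NDUFS1 in differentiation was -0.041 and -0.043 on the RPKM scales, -0.011 without both ALI libraries numbered 2, and -0.012 to 0.24 with 1 left out. SDHB in silencing was 0.020 and 0.021 on the RPKM scales, 0.065 without both, and -0.27 to 0.081 with 1 left out. UQCRB in silencing was 0.093 without both, and -0.76 to 0.049 with 1 left out. With 1 library left out, silencing values ran from -0.0014 to 0.59 for ATP5D, -1.11 to 0.45 for COX7A2L and -0.043 to 0.82 for COX7C. The cause was not tested. Leaving out a monolayer leaves 2 libraries in that group, and summing 2 of them does the same. Depth limits the isoforms with 0 to 3 counts, COX6B2 with 3 counts per ALI control, and NDUFA4L2.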
